A study of Mus musculus with 9 samples.

Results

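Callus RNA from mice given either of 2 drugs that act on STING was compared with callus RNA from mice given PBS. The drug arm held 6 of the 9 libraries, 3 with the STING inhibitor H-151 and 3 with the STING activator SR-717, and the PBS arm held the other 3 libraries. Libraries were assigned by the treatment in their labels, and no measured value was used. The question was which genes stood at a different level with both drugs in the same direction, rather than in the opposite directions that blocking and activating STING would predict.

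All groups were male C57BL/6J mice, 7 weeks old by the labels, with a cut midshaft of the femur fixed by a needle in the marrow cavity. Daily injections of 200 μl into the peritoneum began the day after surgery and went on for a week. H-151 was given at 750 nmol, SR-717 at 30 mg/kg and PBS at the same volume. These doses are in different units, and no source used here says that they were matched. The solvent of the drugs is not given in the sources used here, so drug and solvent cannot be told apart in any difference from PBS. The labels call the tissue bone, and their extraction text speaks of cell lines, while the methods speak of callus.

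STING is an adaptor on the endoplasmic reticulum that is switched on by cGAMP, the messenger that cGAS makes when it meets DNA in the cytosol. Active STING recruits the kinase TBK1, which leads to IRF3 and NF-κB signaling and to interferon and cytokine genes. H-151 binds STING covalently and blocks it, whereas SR-717 takes the place of cGAMP and activates it. A callus at this stage holds inflammatory cells, new cartilage and bone, vessels, remnants of marrow and adjoining muscle.

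Library totals ran from 16987398 to 23272480 expected counts, and all library pairs differed by more than sampling noise. Markers of osteoblasts had a mean of 7.31 to 9.22 log2 CPM (read counts relative to the library total, scaled by TMM), so skeletal transcripts were abundant in every library. Cartilage markers ranged from 3.16 in SR-717 replicate 1 to 8.25 in PBS replicate 2. The first principal component held 46.6% of the variance and set SR-717 replicate 1 and, less far, PBS replicate 1 apart, and the second held 22.9% and set PBS replicate 3 apart. The libraries are called replicates because the labels number them as separate samples. Which mice they came from is not stated, so p-values measure the spread between these samples, taken as unpaired. The main fits left the replicate number out, although 8 of 9 libraries correlated best with their own number.

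A gene was called when its unadjusted p in edgeR's quasi-likelihood test was under 0.05 and its fold was at least 1.5, and it counted as moving the same way when each drug alone also differed from PBS by at least 1.5-fold in that direction. Of 14294 genes tested, 99 (0.693%) were called between the pooled drug libraries and PBS, 62 (0.434%) higher and 37 (0.259%) lower with the drugs. At an unadjusted p under 0.05 and any fold there were 179 genes (1.25%), 261 in DESeq2's Wald test and 166 in limma with sample weights. Evenly spread p-values, with no gene changed, would put a share of 0.05 of the genes there, and all 3 counts lie below that share. At a Benjamini-Hochberg adjusted p under 0.05 there was no gene in any of the 3 tools, and the smallest adjusted p in edgeR was 0.999. Every gene below therefore failed the correction for multiple testing.

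Of the 99 called genes, 87 moved the same way with both drugs, 55 higher (0.385% of genes tested) and 32 lower (0.224%). Against PBS alone, 66 genes (0.462%) were called with H-151 and 176 (1.23%) with SR-717, of which 9 were called higher and 5 lower with each drug separately. No gene was called in opposite directions. Both comparisons use the same 3 PBS libraries, so a PBS library that lies high or low shifts both folds at once. Directly between SR-717 and H-151, 171 genes (1.2%) were called, and none of the 87 had an unadjusted p under 0.05. The pooled fit counts a difference between the drugs as spread, and the rule asks for the same direction with each drug. Genes that differ between the drugs were thus largely screened out beforehand, so this absence cannot show that the drugs act alike. These 87 genes were weakly expressed, with 34 of them (39.1%) under a mean of 1 CPM against 785 (5.49%) of all genes tested. In the deposited libraries fewer cells of a type and less RNA per cell cannot be told apart, which holds for every level below.

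**Figure D1:**
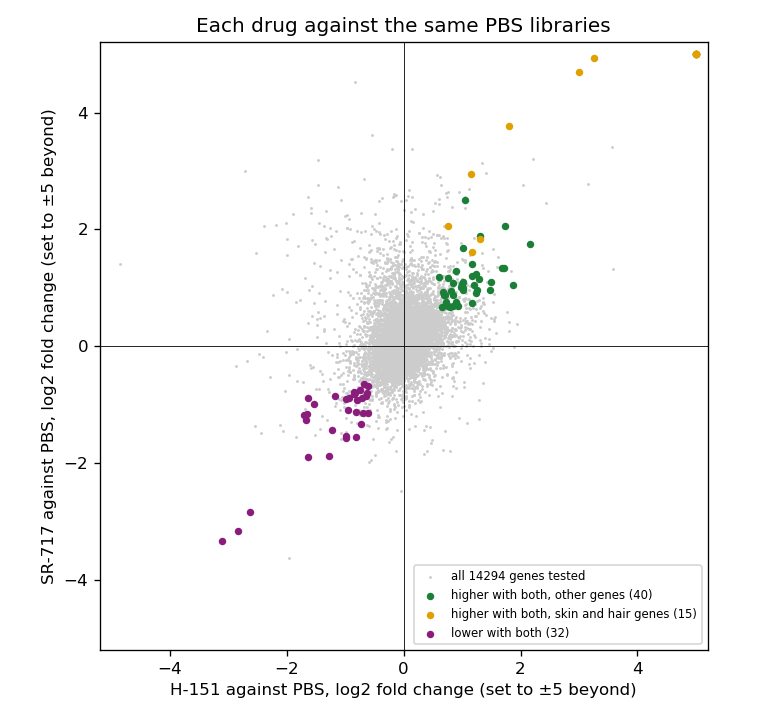
Log2 fold change of each gene tested with H-151 (horizontal) and SR-717 (vertical) against the same PBS libraries, with the 40 other higher genes in green, the 15 skin and hair genes in yellow and the 32 lower genes in purple. The 10 genes beyond 5 on either axis are drawn at the edge, among them 8 skin and hair genes with no PBS count, whose fitted fold depends on the prior count.

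In 16 of the 55 higher genes and 6 of the 32 lower genes, all 6 drug libraries lay on 1 side of all 3 PBS libraries in CPM. In TPM this also held for 10 of the 16 and for 6 of the 6. Over all genes tested, 53 (0.371%) lay wholly above PBS and 80 (0.56%) wholly below, and 30 of these 133 were also called. With a mean of at least 1 CPM there were 8 higher and 2 lower genes that were called, moved the same way and did not overlap.

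Egr2, a zinc finger transcription factor of the immediate-early class (chr10:67535475-67542188, plus strand), had the smallest p of the higher genes. Its level was 8.04, 8.58 and 10.3 CPM with H-151, 7.95, 10.3 and 7.42 CPM with SR-717, and 6.28, 5.12 and 4.55 CPM with PBS. The 6 drug libraries all lay above the 3 PBS libraries, and the drug groups overlapped each other. Means were 8.77 ± 1.25 CPM (SD, n = 6) with drug and 5.32 ± 0.882 CPM (SD, n = 3) with PBS, a fold of 1.65. Its pooled log2 fold change was 0.72 (SE 0.18, unadjusted p = 0.00289 by edgeR), with 0.75 for H-151 and 0.69 for SR-717. SR-717 minus H-151 was -0.07 on the log2 scale, with a 95% interval of -0.56 to 0.43. The call stood in each of the 9 fits that left out a library, with log2 values of 0.62 to 0.86. In TPM, which is scaled for gene length, the libraries did not overlap either.

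Egr2 is known to be induced through serum response factor, which binds the CArG box, and 2 of its RefSeq start sites in GRCm38.p6 carry such a box. The 100 bases before each are shown with the box in capitals, at chr10:67537466-67537565 and chr10:67537769-67537868 on the plus strand, because Egr2 is the higher gene with the smallest p.
Egr2 first start: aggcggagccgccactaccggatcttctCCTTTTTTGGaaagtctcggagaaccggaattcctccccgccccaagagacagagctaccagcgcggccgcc
Egr2 second start: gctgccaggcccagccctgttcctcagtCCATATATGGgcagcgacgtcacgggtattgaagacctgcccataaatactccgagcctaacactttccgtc
Both boxes lie 72 to 63 bases before their start. A CArG box on either strand occurred in the 250 bases before the start in 1.62% of 27025 genes and in 1.39% of the 11162 tested genes that were matched. The match describes the letters and not a bound site.

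The other 19 immediate-early genes tested did not pass. Of the 20, 15 lay above 0 and 5 below, and the median log2 fold change was 0.17 against 0.01 for all genes. This median was 0.69 without PBS replicate 1, 0.018 without PBS replicate 2, -0.062 without SR-717 replicate 1 and -0.10 without PBS replicate 3, so neither its sign nor its size held. Egr1, named after its values were seen, came closest with 0.53 (SE 0.24, unadjusted p = 0.0508 by edgeR). Fos had 0.41 (SE 0.46), with 0.14 for H-151 and 0.64 for SR-717.

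Fmo2, a flavin-containing monooxygenase that oxidizes foreign compounds (chr1:162874317-162898726, minus strand), had the second smallest p of the higher genes. It stood at 1.62, 2.66 and 2.22 CPM with H-151, at 1.498, 1.97 and 1.46 CPM with SR-717, and at 1.199, 0.507 and 0.618 CPM with PBS. PBS replicate 1 was the nearest to the drug libraries, and no library crossed over. The mean was 1.91 ± 0.474 CPM (SD, n = 6) with drug and 0.775 ± 0.372 CPM (SD, n = 3) with PBS. The log2 fold change was 1.30 (SE 0.35, unadjusted p = 0.00471 by edgeR), with 1.49 for H-151 and 1.09 for SR-717, and was called in all 9 leave-one-out fits.

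Fmo2 was the only one of 21 drug-metabolizing enzymes tested that was called. In the whole list 18 genes lay above 0 and 3 below, with a median of 0.39 pooled, 0.19 for H-151 and 0.50 for SR-717. The list's mean level was 2.50 to 2.97 log2 CPM in the 6 drug libraries and 2.60, 2.75 and 1.71 in PBS, so PBS replicates 1 and 2 lay within the drug range and PBS replicate 3 below it. Without PBS replicate 3 the median was 0.11. Cyp2e1, a microsomal cytochrome P450, had 1.09 (SE 0.74), and Fmo5 had 0.76 (SE 0.35, unadjusted p = 0.0575 by edgeR). Both were named after their values were seen.

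Dpp4, the surface dipeptidase CD26 that marks fibroblast progenitors (chr2:62330073-62412231, minus strand), was at 3.53, 4.09 and 3.22 CPM with H-151 and 3.46, 3.66 and 2.57 CPM with SR-717. PBS libraries had 2.40, 2.16 and 1.46 CPM. SR-717 replicate 3 was the lowest drug library and still lay above every PBS library. The log2 fold change was 0.77 (SE 0.23, unadjusted p = 0.00840 by edgeR), the interval of SR-717 minus H-151 was -0.78 to 0.45, and the call stood in all 9 leave-one-out fits. It was the only member called of 14 tested markers of fibroblasts and periosteal progenitors, a list with 6 genes above 0, 8 below and a median of -0.06 that turned to 0.042 without PBS replicate 1.

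Sync encodes syncoilin, an intermediate filament protein of muscle (chr4:129287617-129308559, plus strand). It was at 7.41, 8.19 and 6.28 CPM with H-151, 6.61, 6.48 and 9.46 CPM with SR-717, and 4.80, 6.00 and 2.47 CPM with PBS. PBS replicate 3 was the lowest library, and without it the log2 fold change moved from 0.74 (SE 0.28) to 0.45 and the call was lost. In TPM the groups overlapped. All 17 skeletal muscle markers tested lay above 0, none was called, and the median was 0.48 pooled, 0.37 for H-151 and 0.58 for SR-717. The muscle list's level was 8.37 log2 CPM in PBS replicate 3 and 9.34 to 10.7 in the other 8 libraries, and the list's median was 0.098 without PBS replicate 3 and 0.90 without PBS replicate 2.

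Aspa, which splits N-acetylaspartate into acetate and aspartate (chr11:73304992-73329596, minus strand), was at 1.32, 0.888 and 1.28 CPM with H-151, 6.92, 1.13 and 1.52 CPM with SR-717, and 0.742, 0.380 and 0.562 CPM with PBS. SR-717 replicate 1 stood far above the rest, and in TPM the drug and PBS libraries overlapped. The log2 fold change of 1.95 (SE 0.77) lost its call without any 1 of the PBS libraries. Lsmem1, a membrane protein gene with 1.00 (SE 0.39), lost it without H-151 replicate 3, PBS replicate 2 or PBS replicate 3. The uncharacterized 3830403N18Rik, with 1.98 (SE 0.82) and 6.39 CPM in H-151 replicate 3, kept it in 4 of the 9 fits.

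Gm14419, a predicted gene on chr2:177000956-177012787 (plus strand), was at 0.981, 1.68 and 1.33 CPM with H-151, 1.76, 2.39 and 1.05 CPM with SR-717, and 0.628, 0.761 and 0.731 CPM with PBS. The PBS libraries lay close together and below all 6 drug libraries in CPM, and overlapped them in TPM. Its log2 fold change was 1.11 (SE 0.34, unadjusted p = 0.00942 by edgeR), called in all 9 leave-one-out fits. This stretch of chromosome 2 holds zinc finger genes in near-identical copies whose reads the authors' counting could split, so the value is uncertain. Zfp968-ps, named after its values were seen, lies in the same stretch and had a rounded count of 0 in all PBS libraries and 0.188 to 3.62 CPM in the drug libraries, at least 26.2-fold higher in the mean against a floor of 3 counts over the PBS group. Gm14288, also there and also named after its values were seen, was lower with both drugs, with 19.1 CPM in PBS replicate 3 and 3.55 to 7.27 CPM in the other libraries.

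**Figure D2:**
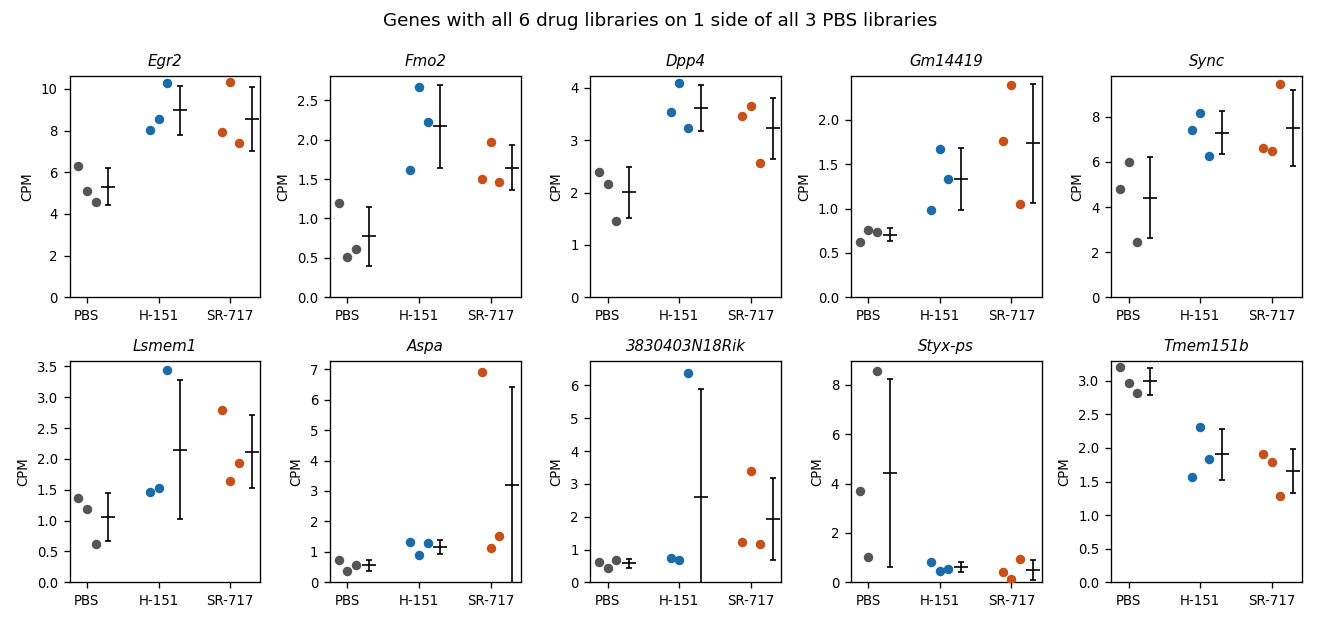
CPM per library for the 10 genes with a mean of at least 1 CPM that moved the same way with both drugs and did not overlap PBS; points are libraries, and the bar beside them is the mean ± SD of 3 libraries, drawn down to 0 at the lowest. Egr2, Dpp4 and Tmem151b show fairly even groups, and for Fmo2 PBS replicate 1 lies above the other PBS libraries. Aspa and 3830403N18Rik carry 1 drug library far above its group, and the PBS libraries of Styx-ps spread widely.

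Tmem151b, a transmembrane protein gene (chr17:45541952-45549677, minus strand), was the steadier of the 2 lower genes. It stood at 1.57, 2.32 and 1.83 CPM with H-151, at 1.91, 1.78 and 1.28 CPM with SR-717, and at 3.20, 2.96 and 2.81 CPM with PBS. The 3 PBS libraries lay within a narrow band above all drug libraries. The log2 fold change was -0.74 (SE 0.21, unadjusted p = 0.00678 by edgeR), a 1.67-fold difference, and the call stood in all 9 leave-one-out fits.

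Styx-ps, on chrX:68821093-68825318 (plus strand), is named as a copy of the pseudophosphatase gene Styx and had the smallest p of all 87 genes. It was at 0.834, 0.444 and 0.556 CPM with H-151, 0.413, 0.141 and 0.934 CPM with SR-717, and 3.71, 1.01 and 8.54 CPM with PBS. The PBS libraries differed widely, and PBS replicate 2 was only just above SR-717 replicate 3. The log2 fold change was -2.99 (SE 0.63, unadjusted p = 0.000964 by edgeR) and ranged from -3.45 to -2.08 over the 9 leave-one-out fits, all called. Reads shared with Styx make its level uncertain.

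A further 2 lower genes were named after their values were seen. Tubb3, a β-tubulin best known from neurons, was at 9.32, 10.5 and 12.7 CPM with H-151, 10.7, 11.6 and 12.7 CPM with SR-717, and 16.4, 18.5 and 16.6 CPM with PBS. Its pooled log2 fold change was -0.61 (SE 0.13, unadjusted p = 0.00130 by edgeR), but with SR-717 alone it was -0.55, short of 1.5-fold, so it is not among the 87. Rgs9, which speeds GTP hydrolysis by G protein α subunits, was at 0.222 to 0.345 CPM with H-151, 0.413 to 0.584 CPM with SR-717 and 0.674 to 1.23 CPM with PBS, a log2 fold change of -1.21 (SE 0.35).

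In 14 of the 32 lower genes just 1 PBS library lay above all 6 drug libraries, in 12 there were 2 such libraries, and in 6 all 3. PBS replicate 3 was the highest of the 9 libraries in 21 of them, PBS replicate 2 in 6 and PBS replicate 1 in 5. In 9 genes both other PBS libraries lay within the drug range, and PBS replicate 3 exceeded the next library by 1.97 to 14.3 times, with a median of 2.77. Without PBS replicate 3, 10 of the 32 were still called.

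The following were named after their values were seen. Gm45844, a predicted gene on chr7:7213017-7278289, was at 38.8 CPM in PBS replicate 3 and at 2.72 CPM or less in the other 8 libraries. Dchs2, a large protocadherin gene, was at 34.1 CPM there and at 1.31 to 2.33 CPM elsewhere. Septin2 (ENSMUSG00000026276), a cytoskeletal GTPase gene, was at 169 CPM against 22.7 to 43.0 CPM, and Stk3, a Hippo pathway kinase, at 41.8 CPM against 3.97 to 14.2 CPM. Enah, an actin regulator, was at 233 CPM against 79.3 to 109 CPM. Without PBS replicate 3 the log2 fold changes were 0.11 for Dchs2 and 0.15 for Gm45844, compared with -2.73 and -3.22 with it. Derpc was high in PBS replicate 2 instead, with 55.8 CPM, and Serpinb9b in PBS replicate 1, with 5.08 CPM.

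**Figure D3:**
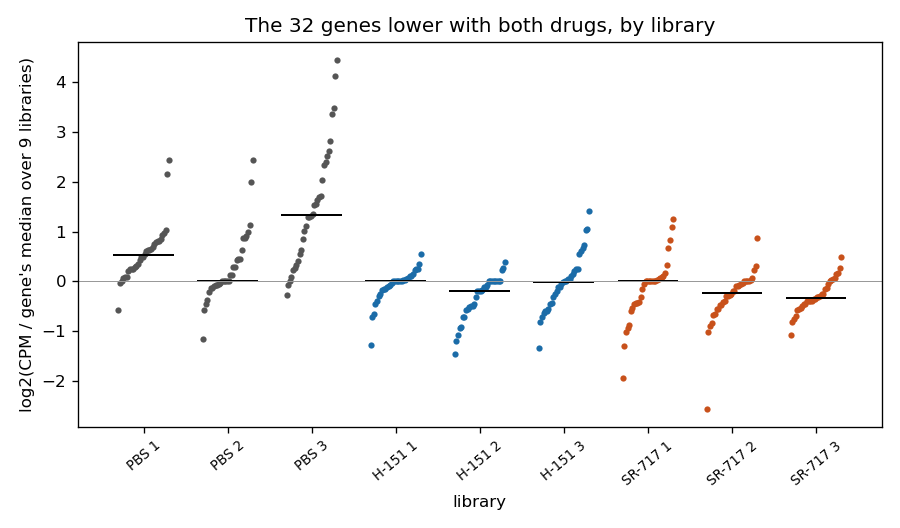
The 32 genes lower with both drugs, each divided by its own median over the 9 libraries (log2, vertical) in each library (horizontal), sorted within a library, with the library's median as a line. The median was 1.34 in PBS replicate 3, 0.53 in PBS replicate 1 and 0 in PBS replicate 2, and lay between -0.33 and 0 in the drug libraries.

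The largest group of related genes among the 55 higher genes belonged to skin and hair. It held 15 genes: Krt14 and Krt17 of the epidermis and follicle sheath, the desmosome component Dsp, the inner root sheath keratins Krt25, Krt27 and Krt71, trichohyalin (Tchh) and Padi3, the enzyme that modifies it, the hair keratins Krt33a and Krt83, the hair cuticle protein S100a3, and Krtap3-1, Krtap7-1, Krtap8-1 and Krtap15 of the hair shaft. In the marker lists, 7 of 13 keratinocyte genes, 7 of 14 hair follicle genes and 53 of 57 keratin-associated protein genes had too few counts to be tested. Of the 6 keratinocyte genes tested, 2 were called, Krt14 and Dsp. In that list 5 genes lay above 0 and 1 below, at -0.83, with a median log2 fold change of 0.52. Members with no count in PBS entered the test only through the drug libraries in which they were high, so how many of those tested were called is no measure of the lists. Each of the 15 was highest in H-151 replicate 1, SR-717 replicate 1 or SR-717 replicate 3.

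Krt71 had 2.26, 0 and 0 CPM with H-151, 3.10, 0.375 and 10.3 CPM with SR-717 and 0 in all 3 PBS libraries, where 3 counts would be 0.127 to 0.171 CPM. It had no count in 2 of the H-151 libraries either, and its mean was at least 52.6-fold higher against a floor of 3 counts over the PBS group, a bound that covers counting error only and falls to 22.5-fold without SR-717 replicate 3. Tchh had 2.75, 0.197 and 0.389 CPM with H-151, 3.36, 1.31 and 8.53 CPM with SR-717 and 0.457, 0.169 and 0.337 CPM with PBS, so H-151 replicates 2 and 3 lay within the PBS range. Krt14 had 0.834, 0 and 0.278 CPM with H-151, 1.81, 0.0939 and 1.69 CPM with SR-717 and 0, 0.0846 and 0 CPM with PBS.

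In sum over the 15 genes, H-151 libraries held 17.3, 2.42 and 3.00 CPM, SR-717 libraries 26.3, 5.87 and 52.5 CPM, and PBS libraries 1.77, 2.16 and 1.18 CPM. The highest library was SR-717 replicate 3 in 12 of the 15, SR-717 replicate 1 in 2 and H-151 replicate 1 in 1, and 8 of the 15 had no count in any PBS library. In 1 of them, S100a3, the drug and PBS libraries did not overlap. Without those 3 libraries, a choice made after seeing the data, 4 of the 15 had enough counts to be tested. In that pooled fit 0 of the 15 were called, and SR-717 replicate 2 was the only SR-717 library left. Without PBS replicate 3 alone, 0 of the 15 were called, and without PBS replicate 1 there was 1, in fits that then held 2 PBS libraries. Over the 9 leave-one-out fits the log2 fold change of Tchh ranged from 2.32 to 3.44 and that of Krt14 from 3.86 to 6.89. Each of these fits dropped only 1 library, so most of the 3 high libraries stayed in, and the ranges are no sign of steadiness. Whether skin entered these dissections was not tested. Of the other 40 higher genes, 18 were called without the 3 libraries.

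The promoters of 3 genes of this group are shown because the genes moved together and their windows share a TATA box, TATAAA, searched on the gene's own strand and printed in capitals. They are the 100 bases before the RefSeq start in GRCm38.p6, on the minus strand at chr15:101743098-101743197, chr11:99322952-99323051 and chr16:89487953-89488052.
Krt71: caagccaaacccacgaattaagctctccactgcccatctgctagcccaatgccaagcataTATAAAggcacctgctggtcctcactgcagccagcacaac
Krt25: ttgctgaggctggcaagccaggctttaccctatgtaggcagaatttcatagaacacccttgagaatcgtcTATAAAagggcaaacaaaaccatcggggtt
Krtap8-1: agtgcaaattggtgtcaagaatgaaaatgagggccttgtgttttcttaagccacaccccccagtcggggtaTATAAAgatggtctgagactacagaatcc
The box began 40, 30 and 29 bases before the start. In the 250 bases before the start, TATAAA was found in 6 of the 11 skin and hair genes that were matched (54.5%), in 5.2% of the tested genes and in 8.94% of all 27025 genes. Krtap15, Padi3, Krt14, Tchh and Dsp had no such box there. The 11 were taken from the called genes, some of them tested only through the drug libraries in which they were high. These shares are therefore no measure of a response to the drugs. No CArG box was found in the 11.

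**Figure D4:**
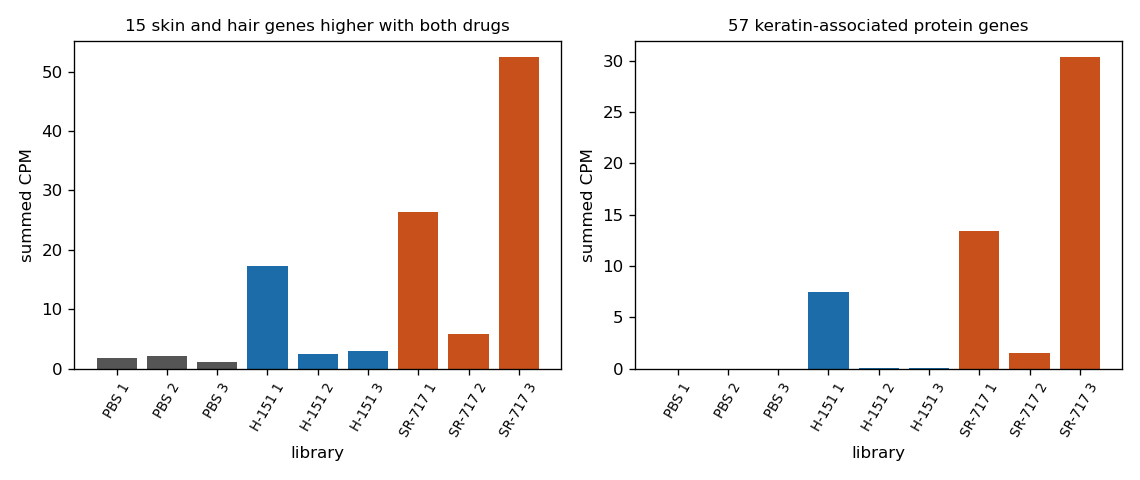
Summed CPM per library of the 15 skin and hair genes higher with both drugs (left) and of all 57 keratin-associated protein genes in the table (right), with PBS in grey, H-151 in blue and SR-717 in orange. SR-717 replicate 3, SR-717 replicate 1 and H-151 replicate 1 are the 3 tall bars in both panels, and PBS is at 0 on the right.

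The remaining higher genes came from several tissues, and those given here were named after their values were seen. Cd36, a fatty acid carrier of fat, muscle and macrophages, was the most abundant, with 65.0, 48.8 and 75.8 CPM with H-151, 52.4, 88.2 and 51.0 CPM with SR-717, and 51.3, 37.1 and 31.2 CPM with PBS. Its groups overlapped through PBS replicate 1, and its log2 fold change was 0.67 (SE 0.24) with 0.66 for H-151 and 0.68 for SR-717. Hspb3, a small heat shock protein of muscle, had 0.88 (SE 0.39). Rgs18, a G protein regulator of platelets, had 1.23 (SE 0.50), with PBS at 0.731 to 1.52 CPM and SR-717 replicate 3 at 0.759 CPM. Of the 9 leave-one-out fits, Cd36 kept its call in 6, Hspb3 in 2 and Rgs18 in 3. Pm20d2, a peptidase gene, did not overlap PBS at a level of 0.362 to 1.13 CPM against 0.169 to 0.254 CPM, and its log2 fold change of 1.54 (SE 0.47) was called in all 9 leave-one-out fits.

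No gene of the pathway that the drugs target was called in the pooled comparison. Of 20 genes of the cGAS-STING core, 11 lay above 0 and 9 below, with a median of 0.06 pooled, -0.08 for H-151 and 0.22 for SR-717, and the pooled median was -0.11 without SR-717 replicate 1 and 0.22 without PBS replicate 1. Sting1 had 0.20 (SE 0.34), Cgas 0.14 (SE 0.32), Tbk1 0.11 (SE 0.30), Irf3 -0.13 (SE 0.12), Nfkb1 0.11 (SE 0.27) and Rela -0.04 (SE 0.23). The signs of Sting1, Cgas, Tbk1, Nfkb1 and Rela changed when some libraries were left out.

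Lists of genes downstream of STING gave medians of different sign for the 2 drugs. The median of 17 interferon-γ GTPases was -0.29 for H-151 and 1.08 for SR-717, that of 20 NF-κB targets -0.62 and 0.84, that of 24 chemokines -0.49 and 0.92, and that of 31 type I interferon response genes -0.34 and 0.29. None of these genes was called in the pooled test, where the medians were 0.60, 0.33, 0.47 and -0.00. The NF-κB targets had a mean level of 7.08 log2 CPM in SR-717 replicate 1 and 3.31 to 3.96 in the other 5 drug libraries, against 5.67, 3.18 and 3.08 in PBS. SR-717 replicate 1 and PBS replicate 1 thus held the highest levels. Without SR-717 replicate 1 the pooled medians turned to -0.29 for the interferon-γ GTPases, -0.64 for the NF-κB targets, -0.43 for the chemokines and -0.36 for the type I interferon genes. Without PBS replicate 1 they were 0.84, 1.56, 1.33 and 0.48, and without both libraries 0.096, 0.22, 0.53 and 0.058.

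Osteoclast, cartilage and bone lists lay below 0 with both drugs pooled, with no gene called. The median was -0.20 for 17 osteoclast markers (-0.23 for H-151 and -0.16 for SR-717), and 15 of them were below 0. Ctsk, the collagen-degrading protease of osteoclasts, had -0.24 (SE 0.28), Acp5, which encodes TRAP, -0.25 (SE 0.24), and Dcstamp, needed for osteoclast fusion, -0.06 (SE 0.29). For 16 chondrocyte markers the median was -0.37 pooled, -0.00 for H-151 and -0.98 for SR-717, with SR-717 replicate 1 the lowest library at 3.16 log2 CPM and PBS replicate 1 next at 5.35. For 14 osteoblast markers it was -0.18, and for 22 genes of BMP and TGF-β signaling -0.14, with 17 below 0. The direction of some of these medians rested on a PBS library. The osteoblast median turned to 0.33 without PBS replicate 3 and the chondrocyte median to 0.25 without PBS replicate 2. Over the 9 leave-one-out fits that of osteoclasts stayed between -0.23 and -0.10 and that of BMP and TGF-β signaling between -0.19 and -0.077. The osteoclast list's mean level was 6.16 to 6.89 log2 CPM in the drug libraries and 6.54 to 6.75 in PBS, so the groups overlapped. SR-717 replicate 1 was its lowest library and H-151 replicate 3 its highest. Over all genes tested the median was 0.01 and 51.3% lay above 0.

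Marrow, blood, fat and muscle lists lay above 0, again with no gene called. The medians were 1.13 for 12 neutrophil markers (0.52 for H-151 and 1.65 for SR-717), 0.79 for 12 B cell markers (1.02 and 0.39), 0.75 for 12 erythroid markers (1.19 and 0.09), 0.51 for 9 platelet markers (0.66 and 0.23) and 0.74 for 10 adipocyte markers (0.82 and 0.58). All stayed above 0 in the 9 leave-one-out fits, but their size did not hold. Without PBS replicate 3 the medians of neutrophil, erythroid and platelet markers were 0.63, 0.35 and 0.029, and without SR-717 replicate 1 that of neutrophil markers was 0.54. PBS replicate 3 had the lowest level of the 9 libraries in 21 of the 46 lists, neutrophils and muscle among them. Erythroid markers stood at 3.07 and 3.83 log2 CPM in PBS replicates 1 and 3 and at 7.22 in PBS replicate 2, while the drug libraries ran from 3.60 to 7.54.

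Leaving out PBS replicate 2 moved the counts more than leaving out any other library. Without it, 406 genes were called higher and 166 lower, against 62 and 37 with it. Called higher were then 10 of 12 erythroid, 7 of 9 platelet, 8 of 12 B cell, 6 of 11 plasma cell, 4 of 10 adipocyte and 4 of 17 muscle markers, all 0 with every library in the fit. The medians in that fit were 3.08 for erythroid, 3.12 for platelet, 2.12 for B cell and 1.41 for adipocyte markers.

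**Figure D5:**
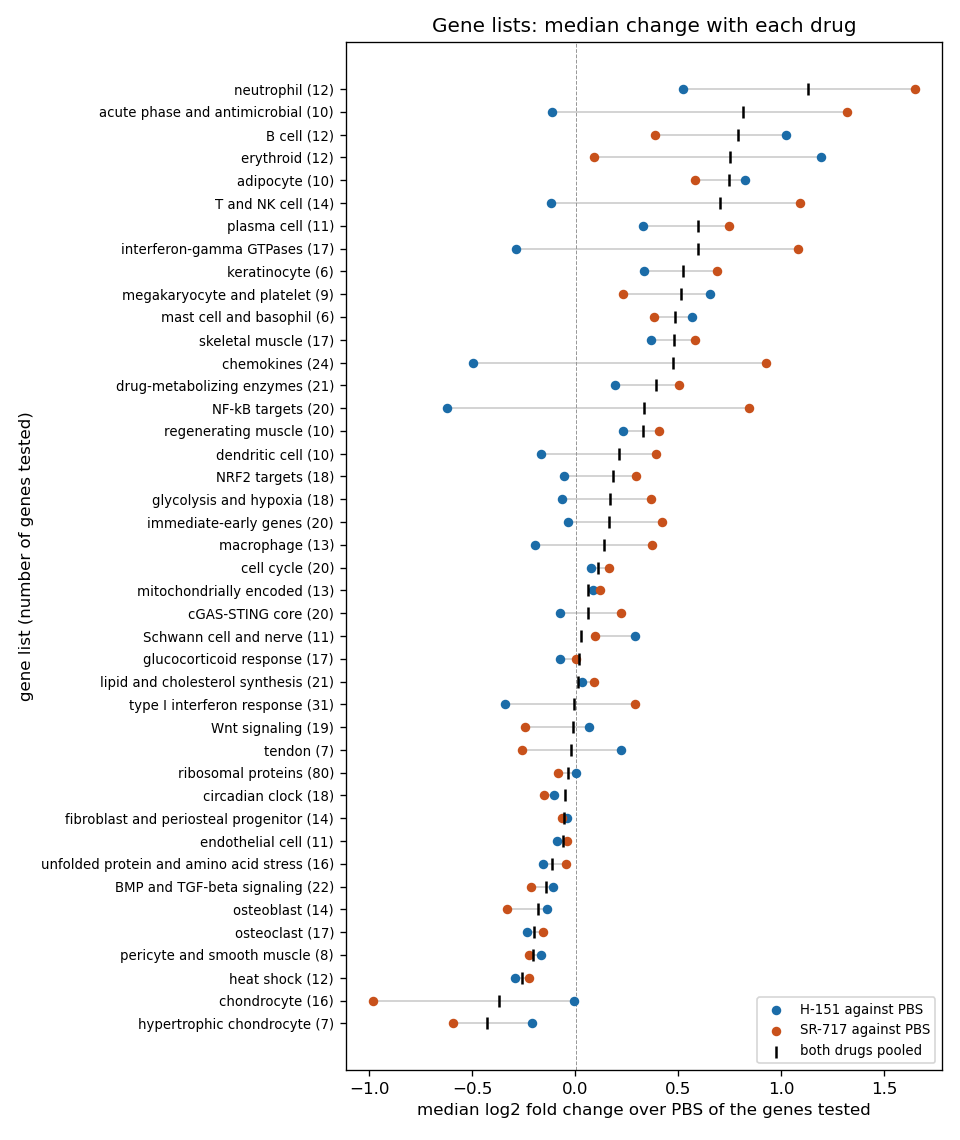
Median log2 fold change over PBS of the tested genes of 42 lists with at least 5 genes tested, for H-151 (blue), SR-717 (orange) and both pooled (black bar), with the median of all genes as a dashed line. Neutrophil markers lie at the top and hypertrophic chondrocyte markers at the bottom, and the NF-κB, chemokine and interferon-γ lists have the drugs on opposite sides of 0; the pooled medians of these 3 lists turned below 0 without SR-717 replicate 1.

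Of the 18 clock genes tested, Per2, a repressor in the circadian clock (chr1:91415982-91459324, minus strand), was called lower. It was at 4.41, 6.41 and 3.34 CPM with H-151, 4.91, 4.65 and 4.03 CPM with SR-717, and 6.11, 9.77 and 5.79 CPM with PBS. H-151 replicate 2 lay above 2 of the PBS libraries, so the groups overlapped. The log2 fold change was -0.64 (SE 0.24, unadjusted p = 0.0260 by edgeR) and lost its call without PBS replicate 2 (-0.36) or without H-151 replicate 3. The hour of tissue collection is not given in the sources used here.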

How the data were processed

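RNA from callus was poly(A)-selected, made into strand-specific libraries and sequenced for the authors by a service company. The authors deposited expected counts per gene (estimates that need not be whole, not normalized) and TPM values, which they scaled for gene length and library total, in 22054 genes. The submitters' processing notes name mm10. The aligner, counting program and strand setting are not given in the sources used here, so overlapping genes and near-identical copies are uncertain.

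Expected counts, 8.91% of them not whole, were rounded. Genes were kept by filterByExpr in edgeR 4.0.16 (counts of at least 10 at the median library size and 15 in total), leaving 14294. After TMM normalization, glmQLFit and glmQLFTest (R 4.3.3) compared 6 drug with 3 PBS libraries in a 2-group fit without covariates, and each drug with PBS and with the other in a 3-group fit. The design assumed counts, and the rounding was the one change. The thresholds of p under 0.05 and 1.5-fold are those of the study, which names DESeq; DESeq2 1.42.0 and limma 3.58.1 were alternatives, beside other filters, weights, folds, a replicate block and libraries left out. Depth was 16987398 to 23272480 counts per library, and floors of 3 counts cover counting error only. The edgeR fits were also run on simulated counts with known changes. Those counts were drawn independently, with no library set apart and nothing shared by replicate number, so the check does not cover these features.

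The comparison, gene lists and tests were chosen with earlier results of these data known. Named genes were the 12 with the smallest p in each direction among same-way genes whose libraries did not overlap and whose mean was at least 1 CPM, the 3 largest folds among them, any gene past the adjusted threshold, up to 4 called members of each list, and Cgas, Sting1, Tbk1, Irf3, Rela, Nfkb1, Ctsk, Acp5, Dcstamp and Fos. Lists were described by counts and medians, with no set test. Gene positions are from GENCODE for GRCm38, the assembly of mm10. KEGG and other annotation columns were not used.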

Additional observations from a re-analysis of the deposited data

Results flagged for a closer look

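In a group of 6 drug libraries, a library was singled out when its gap to the nearest other was large for the group's range. Chance gives this for about 1 in 20 groups of like values. These groups hold libraries of both drugs, so that rate need not apply to them. Genes flagged for the same library are not separate cases. SR-717 replicate 1 was such a library for Fos (110.2 CPM), Sting1 (89.6 CPM), Nfkb1 (121 CPM), Tbk1 (35.02 CPM), Rela (127 CPM), Aspa (6.92 CPM) and Stk3 (14.2 CPM). SR-717 replicate 3 stood apart for Krt71 (10.3 CPM), Krtap7-1 (4.73 CPM), Krt27 (4.03 CPM) and Krtap15 (3.27 CPM). H-151 replicate 2 stood apart for Pm20d2 (1.13 CPM), and H-151 replicate 3 for Septin2 (43.0 CPM).

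Of 57 keratin-associated protein genes in the table, 53 had too few counts to be tested. H-151 replicate 1 still held 92 counts of them in sum. SR-717 replicates 1, 2 and 3 held 161, 17 and 297, and each PBS library 0.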

How the results depend on the processing

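No adjusted p under 0.05 was reached in the pooled comparison in any fit run. Counts are given as higher and lower. All called genes of the pooled comparison numbered 132 and 83 with no filter on low counts, 15 and 21 with a mean count of at least 50, 38 and 17 at 2-fold, and 129 and 103 without SR-717 replicate 1 and PBS replicate 1, which stood apart. Genes moving the same way numbered 129 and 78, 11 and 19, 30 and 9, and 113 and 93 under the same 4 choices, and those that also did not overlap 33 and 20, 4 and 0, 6 and 1, and 96 and 23. Of the latter, limma with sample weights gave 9 higher, and leaving out the 3 libraries rich in hair transcripts, a choice made after seeing the data, gave 55 and 19.

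For H-151 against PBS the counts were 93 and 47 with no filter, 12 and 10 with the mean count, 23 and 16 at 2-fold, 111 and 48 without the 2 libraries, 90 higher with limma and 63 higher without the 3 libraries. For SR-717 against PBS they were 233 and 101, 61 and 31 with the first 2 choices, 28 lower at 2-fold, 186 higher with DESeq2, 183 and 126 with limma and 23 lower without the 3 libraries. For SR-717 against H-151 they were 180 and 112, 65 and 25, then 30 lower at 2-fold, 181 higher with DESeq2, 102 lower with limma, 29 higher without the 2 libraries and 24 lower without the 3.

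Leaving out 1 library at a time, called genes ranged from 35 to 406 higher and 27 to 166 lower, same-way genes from 29 to 388 and 23 to 130, and non-overlapping ones from 20 to 221 and 6 to 43, where fewer libraries make overlap rarer. H-151 ranged from 33 to 336 and 12 to 108, SR-717 from 76 to 523 and 48 to 144, and their difference from 19 to 640 and 36 to 117. Without PBS replicate 2 the pooled counts were 406 and 166, without PBS replicate 1 they were 72 and 77, without PBS replicate 3 they were 35 and 38, and without SR-717 replicate 1 they were 85 and 108. Of the main same-way genes, 8 of 55 higher and 10 of 32 lower remained without PBS replicate 3, and 25 and 27 without PBS replicate 2. The cause was not tested.

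The replicate number was also fitted as a replicate block. It gave 177 higher genes, 145 same-way higher and 20 lower, 143 higher with H-151, 373 higher with SR-717, and 228 higher and 113 lower between the drugs. Of the main same-way genes, 49 of 55 higher and 18 of 32 lower remained with the block. Libraries with the same number had correlations of 0.06 to 0.65 of their deviations from the group means, with a mean of 0.32. Although 2 of 9 pairs were under 0.1, 8 of 9 libraries correlated best with their own number. What the numbers share is not stated in the sources used here and was not tested. The main fits left the number out, so their SEs and p-values hold only if the samples are unpaired.

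Among genes named by the rule, signs turned for some that were not called. Of the called genes named after their values were seen, Dchs2 (0.11), Gm45844 (0.15) and Septin2 (0.066) turned without PBS replicate 3. With limma Cgas was -0.015, Nfkb1 -0.070 and Tbk1 -0.10. Without the 2 libraries that stood apart Nfkb1 was -0.0060, and without the 3 hair-rich libraries Sting1 was -0.18, Nfkb1 -0.21, Tbk1 -0.16 and Dcstamp 0.078. Leaving out 1 library at a time, Sting1 ranged from -0.064 to 0.51, Cgas from -0.031 to 0.51, Nfkb1 from -0.12 to 0.21, Tbk1 from -0.14 to 0.34, Dcstamp from -0.19 to 0.12 and Rela from -0.22 to 0.084.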

Other observations

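A few members of the stress and clock lists passed an unadjusted p of 0.05 in edgeR without reaching 1.5-fold, and they were named after their values were seen. Hsph1, a cytosolic chaperone, was at 31.5 to 33.0 CPM with H-151, 34.0 to 39.9 CPM with SR-717 and 54.3, 66.9 and 29.7 CPM with PBS, a log2 fold change of -0.53 (SE 0.21), with PBS replicate 3 the lowest library. Hspd1, the mitochondrial chaperone, was lower in all 6 drug libraries, at 75.7 to 90.7 CPM against 91.3 to 109 CPM, a log2 fold change of -0.23 (SE 0.10). Hspe1, which did not pass and was also named after its values were seen, had 0.01 (SE 0.25). In the heat shock list 9 of 12 genes lay below 0, with a median of -0.26, -0.29 for H-151 and -0.22 for SR-717. The list's mean level was 6.480, 6.585 and 5.746 log2 CPM in PBS and 5.749 to 6.139 in the drug libraries. PBS replicate 3 was thus its lowest library. Vegfa, an angiogenic factor, had -0.37 (SE 0.16), with PBS replicate 1 the highest at 69.0 CPM and PBS replicate 3, at 43.7 CPM, within the drug range of 37.8 to 52.3 CPM.

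Arntl, which encodes the clock activator BMAL1, had a log2 fold change of 0.35 (SE 0.15), with 0.23 for H-151 and 0.47 for SR-717. It was at 13.3 to 19.8 CPM with drug and 11.5 to 13.95 CPM with PBS, so the groups overlapped. Sgk1, a kinase gene that responds to glucocorticoids, had 0.44 (SE 0.19), with 0.34 for H-151 and 0.54 for SR-717, while the glucocorticoid list of 17 genes had a median of 0.02, which ranged from -0.18 to 0.16 when libraries were left out 1 at a time.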
